A study of Mus musculus with 10 samples.

Results

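The CXC chemokine ligands are small secreted proteins that share a pair of cysteines set apart by a single residue, and the 9 genes described here are Cxcl1, Cxcl2, Cxcl5, Cxcl9, Cxcl10, Cxcl12, Cxcl13, Cxcl14 and Cxcl16. They were taken by gene symbol from the mRNA-seq files, in which 18345 genes had at least 1 rounded count. The cells were adipocyte precursors (APs) from the subcutaneous white adipose tissue of C57BL/6J mice, isolated on magnetic beads by removing CD45+ and CD31+ cells and then retaining SCA-1+ cells, and grown in culture. Control cultures (n = 3, replicates 1 to 3) received no IL-4. IL-4 cultures (n = 3, replicates 4 to 6) received interleukin-4, a type 2 cytokine, from the day after seeding. They were harvested with the controls after 4 days with IL-4. The age and sex of the mice were not given in the sources used here, nor was the number of animals behind each culture. Each library held between 28526782 and 29057787 expected counts, the estimated number of reads per gene.

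Chemokines guide migrating cells by binding receptors that span the cell membrane, and CXC ligands with a glutamate-leucine-arginine motif, such as Cxcl1, Cxcl2 and Cxcl5, recruit neutrophils through Cxcr2. Cxcl9 and Cxcl10 are induced by interferons and draw activated T cells and NK cells through Cxcr3, while Cxcl12, the main ligand of Cxcr4, is made by stromal cells in many tissues. In adipose tissue both stromal cells and macrophages are known sources of chemokines.

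Genes of the labelled cell type were read, some of them at low levels. All 13 genes of an AP and fibroblast list had reads, with Col1a1, Col3a1 and Thy1 the highest in control, and Ly6a, which encodes SCA-1, had a mean of 120 FPKM in control and 245 FPKM with IL-4 (fragments scaled to transcript length and library size, a level per length). The lowest of the AP and fibroblast list in control were Dpp4 (0.307 FPKM), Pi16 (0.787 FPKM) and Cd34 (3.37 FPKM). All 14 genes of a macrophage list also had reads, although CD45+ cells had been removed. Their summed level was 3970 to 5210 FPKM in the control libraries and 1480 to 2030 FPKM in the IL-4 libraries, with control replicate 3 at the top. Lyz2 alone had a mean of 2740 FPKM in control and 776 FPKM with IL-4. Ptprc, which encodes CD45, had a mean of 18.3 FPKM in control and 8.22 FPKM with IL-4. Of the 14 genes, 13 were lower with IL-4 at an adjusted p under 0.05. Of 8 neutrophil genes, Csf3r alone had enough reads to be tested, S100a8 had at most 5 counts in a library, Elane and Retnlg had no read, and the summed level of the list stayed between 0.63 and 1.23 FPKM in all libraries. Of the lymphocyte genes, Cd2 and Klrb1c had at most 9 counts in a library, too few to be tested, and Cd3e and Cd3d had no read. In such bulk libraries, fewer cells of a type and less RNA per cell cannot be told apart.

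All 9 ligand genes had reads, and 7 of them passed the filter on low counts and were tested with edgeR. With IL-4, 4 of the 7 (Cxcl9, Cxcl10, Cxcl14 and Cxcl16) were lower by more than a log2 fold change of 1 at an adjusted p under 0.05, whereas 5.26% of the 14009 genes tested across the transcriptome were called lower by that rule. None of the 7 was called higher by edgeR, against 5.77% of all genes tested. DESeq2, which also tested Cxcl13, called that gene higher. Without the fold threshold, 6 of the 7 passed the adjusted p, which 37.4% of all genes tested also did, and the additional ones were Cxcl5 and Cxcl12, both higher with IL-4. These 2 were also the tested ligands that were higher at an unadjusted p under 0.05. The median log2 fold change of the 7 tested ligands was -2.07, and that of all genes tested was 0.00256.

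**Figure D1:**
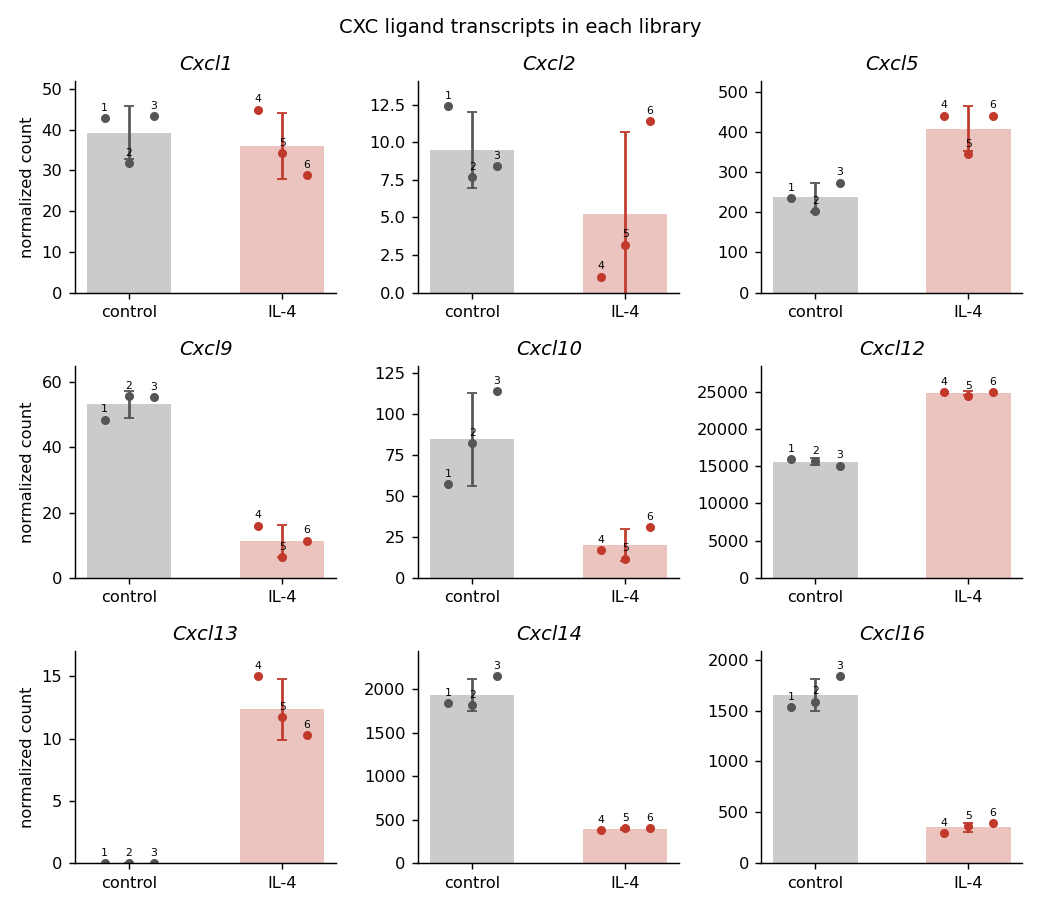
Normalized counts (counts scaled to a common library size, linear axes from 0) of the 9 CXC ligand genes in the 3 control libraries (grey, 1 to 3) and the 3 IL-4 libraries (red, 4 to 6). Points are libraries, bars are means and error bars are SD, which for Cxcl2 with IL-4 reaches below 0 and is cut at the axis. The groups overlap for Cxcl1 and Cxcl2, and Cxcl9, Cxcl10, Cxcl14 and Cxcl16 fall to 20.3% to 23.9% of control.

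Among the ligands of Cxcr2, Cxcl5 was higher with IL-4 while Cxcl1 did not pass the test. Cxcl5 (chr5:90759298-90761625, here and below on mm10, from RefSeq), a neutrophil attractant, had 247, 212 and 292 expected counts in the control libraries and 412, 322 and 427 with IL-4. The lowest IL-4 library stood above the highest control library. The normalized count rose from 237 ± 35.3 to 408 ± 56.0 (SD, n = 3 each), or 1.72-fold. On the log2 scale the difference was 0.78 (SE 0.14, 95% interval 0.45 to 1.11, edgeR adjusted p = 0.00322), which is short of the 2-fold rise that the threshold asks for.

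Cxcl1 (chr5:90891245-90893121), also known as KC and a neutrophil attractant, had 45, 33 and 46 counts in control and 42, 32 and 28 with IL-4. The groups overlapped, and the log2 fold change was -0.13 (SE 0.23, edgeR adjusted p = 0.707). Its 95% interval ran from -0.65 to 0.40, and a change within that range was not detectable at this depth.

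Cxcl2 (chr5:90903899-90905938), which lies beside Cxcl1 and acts on the same receptor, was close to the limit of detection. It had 13, 8 and 9 counts in control and 1, 3 and 11 with IL-4, so that IL-4 replicate 6 stood within the control range and the other IL-4 libraries below it. The gene did not pass the filter on low counts, and without that filter its log2 fold change was -0.83 with an edgeR adjusted p of 0.395.

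Cxcl1 and Cxcl2 start 12.7 kb apart on the same strand, and the RefSeq promoter windows of both held the same 11-base κB run, which is why their upstream sequences are shown. The windows, on GRCm38.p6 (the same assembly as mm10), were searched on both strands from 250 bases before to 50 bases after the start, for 6 motifs: the κB consensus, TTCNNNGAA (GAS type), TTCNNNNGAA (STAT6 type), GAAANNGAAA (ISRE type), the AP-1 motif and the TATA box. The AP-1 motif was searched as TGANTCA. The letters TATAAA stood for the TATA box. Of the 9 ligand genes, 7 had a window in the table, all but Cxcl5 and Cxcl16. The 250 bases before the start are printed 5′ to 3′ on the strand of the gene, with every motif match in capitals.
Cxcl1 (chr5:90890995-90891244, plus strand): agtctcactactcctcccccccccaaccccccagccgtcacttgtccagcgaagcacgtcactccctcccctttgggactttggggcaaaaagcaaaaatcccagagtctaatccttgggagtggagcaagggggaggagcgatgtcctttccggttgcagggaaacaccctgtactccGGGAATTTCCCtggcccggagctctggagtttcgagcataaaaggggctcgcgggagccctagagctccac
Cxcl2 (chr5:90903649-90903898, plus strand): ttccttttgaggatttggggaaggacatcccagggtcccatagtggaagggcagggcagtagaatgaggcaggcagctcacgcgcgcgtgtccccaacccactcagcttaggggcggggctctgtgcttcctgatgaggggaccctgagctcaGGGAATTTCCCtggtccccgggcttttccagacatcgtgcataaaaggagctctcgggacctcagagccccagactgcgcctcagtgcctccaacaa
The capitals in both are the κB match, on both strands in overlapping registers, at -71 to -61 in Cxcl1 and at -97 to -87 in Cxcl2. A κB match was present in 8.46% of the 32851 promoter windows of the RefSeq table.

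The interferon-induced ligands Cxcl9 and Cxcl10 were both lower with IL-4. Cxcl9 (chr5:92321331-92328079) had 51, 58 and 59 counts in control and 15, 6 and 11 with IL-4. All IL-4 libraries were below all control libraries, and the normalized count fell from 53.2 ± 4.06 to 11.3 ± 4.82 (SD, n = 3 each), which left 21.4% of the control level. The log2 fold change was -2.23 (SE 0.28, edgeR adjusted p = 0.000426).

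Cxcl10 (chr5:92346638-92348889) had 60, 86 and 121 counts in control and 16, 11 and 30 with IL-4. The groups did not overlap, but the libraries of each group were spread widely, with control replicate 3 the highest and control replicate 1 the lowest of the controls. The log2 fold change was -2.07 (SE 0.37, edgeR adjusted p = 0.00312), which left 23.9% of the control level. Without control replicate 3 it was -1.79 with an adjusted p of 0.0103. Tested against the fold threshold itself with glmTreat, Cxcl10 had an adjusted p of 0.0556, whereas Cxcl9 had 0.00771.

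Cxcl9 and Cxcl10 lie on the minus strand with starts 20.8 kb apart, and their upstream sequences are shown because the pair fell together.
Cxcl9 (chr5:92328080-92328329, minus strand): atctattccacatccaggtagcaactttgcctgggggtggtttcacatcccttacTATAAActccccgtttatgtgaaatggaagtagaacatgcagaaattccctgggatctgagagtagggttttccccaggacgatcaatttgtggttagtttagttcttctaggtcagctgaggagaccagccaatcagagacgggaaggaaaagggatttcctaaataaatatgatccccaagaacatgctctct
Cxcl10 (chr5:92348890-92349139, minus strand): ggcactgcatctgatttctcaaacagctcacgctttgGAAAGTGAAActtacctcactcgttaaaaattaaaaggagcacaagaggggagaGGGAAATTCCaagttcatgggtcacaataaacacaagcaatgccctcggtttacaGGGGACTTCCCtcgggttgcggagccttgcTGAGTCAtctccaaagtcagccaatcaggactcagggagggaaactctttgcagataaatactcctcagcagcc
In Cxcl9 the capitals are a TATA-box match at -195 to -190. Its only other match, an AP-1 match, lies after the start. In Cxcl10 they are, in order, an ISRE-type match (GAAAGTGAAA, -213 to -204), a κB match (-159 to -150), overlapping κB matches (-104 to -94) and an AP-1 match (TGAGTCA, -74 to -68). An ISRE-type match was present in 3.44% of all windows and an AP-1 match in 7.81%. No match says only that these letters are not in the window.

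Genes that feed into these ligands, and other targets of interferon, moved unequally. Tnf, a cytokine that induces several CXC ligands, had 214, 215 and 252 counts in control and 27, 17 and 20 with IL-4 (log2 fold change -3.25, SE 0.17, edgeR adjusted p = 4.16e-06). Of 12 tested genes in the list of IL-1, TNF and IL-17 inputs, 7 were higher and 3 lower at the adjusted p. The called ones were Il1a (2.40) and Il1r1 (1.12), both higher, and Tnf and Tlr2 (-1.77), both lower. Il1a was near the floor, with 5, 2 and 3 counts in control and 16, 13 and 20 with IL-4. It could pass the filter on low counts only through its IL-4 counts. Of 13 genes for NF-κB subunits and their feedback genes, 2 were higher and 3 lower at the adjusted p, none of them beyond the fold threshold, with a median log2 fold change of -0.04. On the interferon side, Irf8, a transcription factor of myeloid cells, was called lower (-1.16). Of 12 interferon-stimulated genes, 6 were lower and 1 higher, and the 1 called gene was Rsad2 (-1.27). The median of that list was -0.43, against -2.23 and -2.07 for Cxcl9 and Cxcl10.

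Cxcl12 was by far the most abundant CXC ligand and was higher with IL-4. This gene (chr6:117168535-117181368), whose product retains and attracts Cxcr4-bearing cells, had 16795, 16325 and 16118 counts in control and 23335, 22919 and 24235 with IL-4. The libraries of each group were tightly grouped and well apart. The log2 fold change was 0.67 (SE 0.06, 95% interval 0.54 to 0.80, edgeR adjusted p = 4.56e-05), or 1.59-fold. The level per length was 278 ± 5.02 FPKM in control and 417 ± 14.0 FPKM with IL-4 (SD, n = 3 each).

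Cxcl12 is also the only one of the 9 ligands for which the files name more than 1 RefSeq transcript. In RefSeq, 2 of its 3 transcripts span the whole gene, with 4 exons and spliced lengths of 5670 and 3173 bases, and the shortest ends at position 117175069 with 3 exons and 1878 bases. The abundance-weighted transcript length that the authors' quantification assigned was 2140.77, 2151.85 and 2109.84 bases in control and 2023.87, 2020.35 and 1994.09 bases with IL-4. All IL-4 libraries were shorter, at 2012.8 ± 16.3 against 2134.2 ± 21.8 bases (SD), with an exact two-sided permutation p of 0.1, which is the smallest that 3 against 3 libraries allow. Among 3848 genes with more than 1 transcript and a mean of at least 100 counts, 7.35% were shorter with IL-4 without overlap between the groups.

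Cxcl14 and Cxcl16, the ligands next in level to Cxcl12 in control, were both called lower with IL-4. Cxcl14 (chr13:56288643-56296811), a ligand of epithelia and fat whose receptor is not settled, had 1934, 1898 and 2292 counts in control and 354, 375 and 386 with IL-4. The IL-4 libraries lay close to each other and far below the controls. The log2 fold change was -2.30 (SE 0.09, edgeR adjusted p = 6.96e-07), which left 20.3% of the control level, and without control replicate 3, the highest control, it was -2.22. The files name a single Cxcl14 transcript, which starts at 56296551, inside the bounds of the gene. The RefSeq window was taken from that start, so the bases before it also lie within the gene and are not printed. Counted from that start, the window held a GAS-type match (TTCTGAGAA, -191 to -183) and an ISRE-type match (GAAACAGAAA, -172 to -163). A GAS-type match was present in 8.30% of all windows. The Cxcl12 window held none of the 6 motifs and that of Cxcl13 only a TATA-box match (-46 to -41, a motif in 13.6% of all windows), and no window of the 7 held the STAT6-type motif, which was present in 6.95% of all windows.

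Cxcl16 (chr11:70454389-70459984) encodes a membrane-bound ligand that is shed from the cell surface, attracts Cxcr6-bearing T cells and also takes up oxidized lipoprotein. It had 1618.02, 1655.68 and 1961.42 expected counts in control and 276.58, 336.75 and 379.9 with IL-4, again with no overlap and with control replicate 3 the highest. The log2 fold change was -2.24 (SE 0.12, edgeR adjusted p = 3.84e-06), which left 21.1% of the control level. The counts are not whole numbers because some reads were shared between genes. Cxcl16 overlaps Zmynd15, on the opposite strand, over 552 bases, and Zmynd15 was itself lower (log2 fold change -1.52, edgeR adjusted p = 0.00256) at 50.98 to 83.58 counts in control and 15.42 to 25.25 with IL-4. Reads of the shared stretch cannot be told apart without strand, but all Zmynd15 counts together are a small part of those of Cxcl16.

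Cxcl13 (chr5:95956939-95961068), the ligand that draws B cells through Cxcr5, was read only with IL-4. It had 0, 0 and 0 counts in control and 14, 11 and 10 with IL-4. Taking 3 counts per library as the limit that a count of 0 allows, the IL-4 mean of 12.3 normalized counts was at least 3.9-fold higher than control. The gene did not pass the filter on low counts. Without that filter it had an edgeR adjusted p of 0.00138, and DESeq2 gave 3.83e-05. At 0.367 ± 0.0666 FPKM (SD, n = 3) its level stayed among the lowest of the 9.

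**Figure D2:**
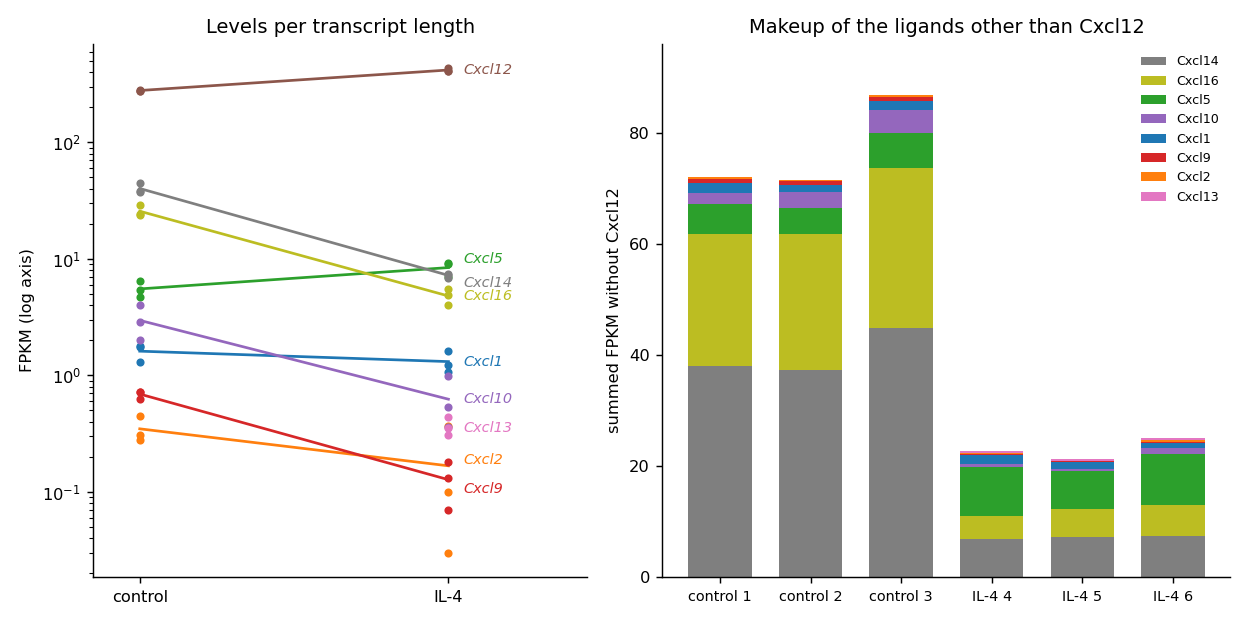
Left, level per transcript length (FPKM, log axis) of each CXC ligand in control and IL-4 libraries; points are libraries and lines join the group means, and Cxcl13, at 0 in control, is drawn with IL-4 only. Right, FPKM of the 8 ligands other than Cxcl12 stacked for each library, on a linear axis from 0, which sum to 71.5 to 86.8 in control and 21.2 to 25.0 with IL-4.

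Ordered by FPKM, the control level ran from Cxcl12 (278) through Cxcl14 (40.1), Cxcl16 (25.6), Cxcl5 (5.51), Cxcl10 (2.96), Cxcl1 (1.61), Cxcl9 (0.690) and Cxcl2 (0.347) to Cxcl13 at 0, and each neighbour in that order differed by more than the larger SD. With IL-4 the order became Cxcl12 (417), Cxcl5 (8.40), Cxcl14 (7.20), Cxcl16 (4.79), Cxcl1 (1.31), Cxcl10 (0.623), Cxcl13 (0.367), Cxcl2 (0.167) and Cxcl9 (0.127). The pairs Cxcl5 and Cxcl14, Cxcl10 and Cxcl13, and Cxcl2 and Cxcl9 did not differ beyond their spread in that group. Cxcl5, in the fourth place in control, was level with Cxcl14 after IL-4.

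The makeup of the CXC ligand transcripts narrowed to Cxcl12. Its share of the summed FPKM of the 9 genes was 79.7%, 79.3% and 76.0% in the control libraries and at least 94.5% in each IL-4 library, with a mean of 94.8%. The share of Cxcl14 went from a mean of 11.3% to 1.64% and that of Cxcl16 from 7.22% to 1.09%, while Cxcl5 took 1.55% and 1.91%. The sum of all 9 was 346 to 362 FPKM in control and 426 to 457 FPKM with IL-4. Left without Cxcl12, it was 76.8 FPKM on average in control and 23.0 FPKM with IL-4.

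**Figure D3:**
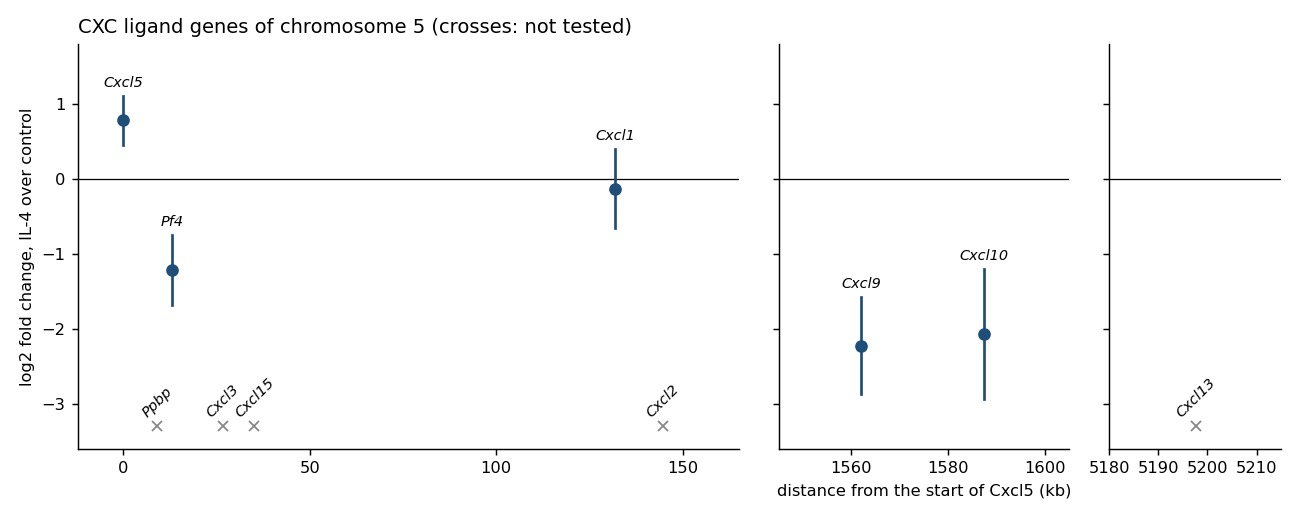
Log2 fold change with IL-4 (edgeR, bars are 95% intervals) of the CXC ligand genes of chromosome 5 against the distance in kb of each gene's lowest base from the start of Cxcl5, in 3 windows of the chromosome. Crosses at the bottom mark genes with too few reads to be tested and carry no value. Cxcl5 (0.78) and Pf4 (-1.21), 13.1 kb apart, differ in sign, and Cxcl9 (-2.23) and Cxcl10 (-2.07) lie at like values.

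Of the 9 genes, 6 lie on chromosome 5, and direction was not shared along it. Cxcl5 was higher with IL-4, whereas Pf4, the platelet factor that starts 13.1 kb from it, had 295, 384 and 476 counts in control and 120, 142 and 186 with IL-4 (log2 fold change -1.21, SE 0.20, edgeR adjusted p = 0.00206). Cxcl1, 131.9 kb from the start of Cxcl5, was neither. Of the other CXC ligands Cxcl3, Cxcl11, Cxcl15, Cxcl17 and Ppbp, none had more than 11 counts in a library or enough to be tested.

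**Figure D4:**
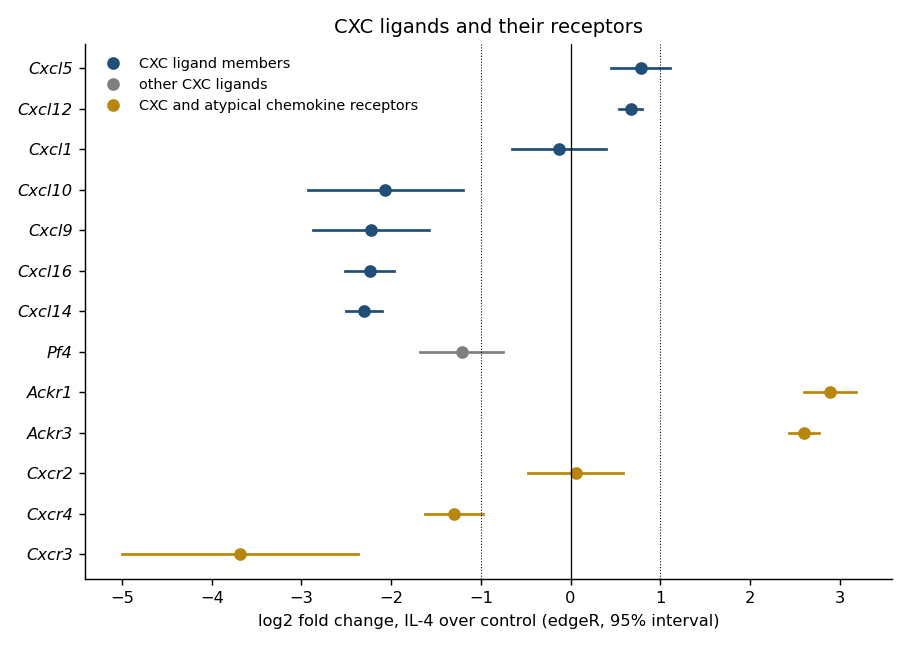
Log2 fold change with IL-4 (edgeR, points, with 95% intervals as bars) of the tested CXC ligands (blue), of Pf4 (grey) and of the tested CXC and atypical receptors (gold). Dotted lines mark log2 fold changes of -1 and 1. Cxcl9, Cxcl10, Cxcl14 and Cxcl16 lie left of the lower line with their whole intervals, and Ackr1 and Ackr3 right of the upper one.

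The receptors of these ligands moved in both directions. Of 10 receptor genes, 5 were tested, and 2 were called higher and 2 lower. Cxcr4, the receptor of Cxcl12, had 423, 367 and 523 counts in control and 145, 166 and 168 with IL-4 (log2 fold change -1.30, SE 0.14, edgeR adjusted p = 0.00018). Cxcr3, the receptor of Cxcl9 and Cxcl10, had 22, 12 and 28 counts in control and 1, 1 and 2 with IL-4 (log2 fold change -3.69, SE 0.57, edgeR adjusted p = 0.00117). With at most 2 counts in an IL-4 library, Cxcr3 could pass the filter on low counts only through its control counts. From the summed counts of 62 and 4, its control level was 13.9 times the IL-4 level, with an exact 95% interval of 5.18 to 52.8 that covers counting error only.

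Both receptors that rose are atypical ones, which bind chemokines without the usual signaling and so clear or carry them. Ackr3, a scavenger of Cxcl12, had 209, 201 and 225 counts in control and 1098, 1138 and 1223 with IL-4 (log2 fold change 2.60, SE 0.07, edgeR adjusted p = 1.99e-07). Ackr1, which binds Cxcl1, Cxcl5 and many other inflammatory chemokines, had 76, 68 and 87 counts in control and 482, 468 and 589 with IL-4 (2.89, SE 0.13, adjusted p = 1.42e-06). Ackr1 was 7.40-fold and Ackr3 6.06-fold higher, and neither overlapped between the groups. Cxcr2 did not pass the test (0.06, SE 0.23, adjusted p = 0.865), Cxcr5, Cxcr6, Ackr2 and Ackr4 had at most 7 counts in a library, and Cxcr1 had none.

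Proteases that cut CXC ligands were measured in the same libraries. Of 7 tested, 3 were higher at the adjusted p, 2 of which were called. Mmp12, the macrophage elastase that trims neutrophil-attracting CXC ligands, had 4093, 3708 and 3722 counts in control and 22875, 25429 and 28919 with IL-4 (log2 fold change 2.90, SE 0.09, edgeR adjusted p = 3.01e-07). Mmp2, which clips Cxcl12, had a log2 fold change of 1.44 (SE 0.06, adjusted p = 1.18e-06). Adam10, which sheds Cxcl16, did not pass the test (0.18, SE 0.10, adjusted p = 0.21).

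Cish (3.67) and Socs1 (3.19), feedback inhibitors of STAT signaling, were the 2 called genes of 8 in the list of the IL-4 receptor and STAT6, both higher. Macrophage genes were mostly lower, like the ligands that fell, but by unequal amounts. In that list 7 of 14 were called lower, with a median log2 fold change of -1.02. The values were -8.65 for Cx3cr1, -2.91 for Fcgr1, -2.59 for Cd14 and -1.05 for Csf1r, while the 2 with the highest levels, Lyz2 and C1qa, had -1.64 and -1.20. Cx3cr1 had 3, 3 and 5 counts with IL-4, so the size of its fall rests on few counts. The smallest falls at the adjusted p were those of Adgre1 (-0.24), Itgam (-0.27) and Tyrobp (-0.62). Cd68, a marker of macrophage lysosomes, did not pass the test (0.38, adjusted p = 0.0572). Of 7 tested genes that macrophages express after IL-4, 7 were higher at the adjusted p and 6 were called. Among them were Chil3 (11.26), Retnla (10.79), Mgl2 (9.72), Arg1 (9.33) and Ccl24 (8.08). Some of these sizes rest on few control counts: 4, 9 and 77 for Chil3, 2, 2 and 18 for Retnla, and 2, 0 and 2 for Ccl24. Ccl17 and Ccl22 of that list had too few reads to be tested. Ccl17 had 6, 4 and 7 counts in control and 1, 0 and 3 with IL-4. Ccl22 had 0, 3 and 6 in control and 9, 6 and 17 with IL-4. Control replicate 3 had the highest macrophage sum of the controls (5210 FPKM). By normalized count it was also the control with most Cxcl10, Cxcl14, Cxcl16 and Pf4, which fell, and with most Cxcl5, which did not. Cxcl1 was about level in control replicates 1 and 3 (42.8 and 43.2), and Cxcl9 in control replicates 2 and 3 (55.7 and 55.3). Of the IL-4 libraries, replicate 6 had the highest macrophage sum (2030 FPKM) and the most Cxcl10, Cxcl16 and Pf4. The genes of the macrophage list did not share that order. By normalized count Ptprc, Csf1r, Itgam and Mertk were lowest in IL-4 replicate 6, and the others were highest there. Cxcl9 was highest in IL-4 replicate 4, and Cxcl14 was about level in IL-4 replicates 5 and 6 (400 and 399). The part of these cells in the falls of Cxcl9, Cxcl10, Cxcl14 and Cxcl16 was not tested.

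**Figure D5:**
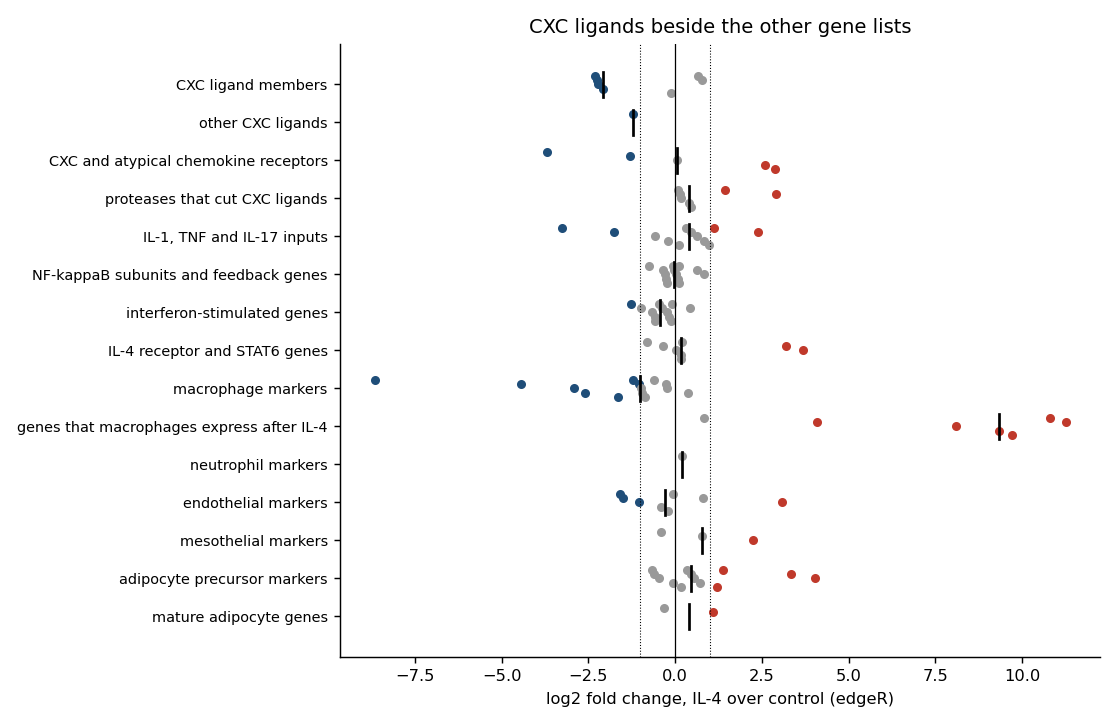
Log2 fold change with IL-4 (edgeR) of every tested gene of the CXC ligand list and of 14 other lists, 1 point per gene, with genes called higher in red, called lower in blue and the others in grey. Black ticks are medians and dotted lines mark -1 and 1; the ligands' median is -2.07, that of the macrophage markers -1.02 and that of the genes macrophages express after IL-4 is 9.33.

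The remaining lists were smaller or mixed. Endothelial genes, a sign of CD31+ cells, had summed levels of 14.0 to 14.8 FPKM in control and 15.1 to 17.0 FPKM with IL-4. Vwf was called higher (3.08), Tek was higher at the adjusted p (0.81), and Cdh5 (-1.60), Emcn (-1.49) and Erg (-1.03) were called lower. Pecam1, which encodes CD31, did not pass the test (-0.20, edgeR adjusted p = 0.235). Of 3 tested mesothelial genes, Wt1 was called higher (2.23), Krt19 was higher at the adjusted p (0.76) and Krt8 (-0.41) did not pass. Of 13 AP genes, 7 were higher and 3 lower at the adjusted p, with Pi16 (4.02), Cd34 (3.35), Col3a1 (1.37) and Ly6a (1.20) called higher. The 3 that were lower were Pdgfrb (-0.66), Lum (-0.61) and Icam1 (-0.47). Of the 2 mature adipocyte genes with enough reads, Fabp4 was called higher (1.10) and Lipe was lower at the adjusted p (-0.32).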

How the data were processed

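Poly(A) RNA of 3 control and 3 IL-4 cultures was sequenced on a BGISEQ-500. The authors filtered reads with SOAPnuke, aligned them to mm10 and quantified genes with Bowtie2 and RSEM on RefSeq transcripts. The deposited files give expected counts, which are not normalized, FPKM, in which the authors took account of transcript length and depth, and an abundance-weighted transcript length per gene. The submitters' processing notes also name HISAT and StringTie. Genes without a row in a library were taken as 0. A row that names no gene (0.00016% of counts) was left out. Small RNA libraries were not used here. Some list results are not reported here.

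After rounding, genes with low expected counts were removed by filterByExpr (at least 10 counts, 15 in total), libraries were scaled by TMM, and the groups were compared by the quasi-likelihood test of edgeR 4.0.16 (R 4.3.3). P-values were adjusted by the Benjamini-Hochberg method across the 14009 genes left. A gene was called where the adjusted p was below 0.05 and the log2 fold change was above 1 or below -1, the authors' thresholds. Normalized counts are counts at the mean scaled library size. Depth was 28526782 to 29057787 expected counts per library, so a gene at 0 may have up to 3 counts, a limit that covers counting error only. The series' design text calls the cultures biological replicates. The labels give only a number, so p-values measure the spread between these cultures, which may be technical if they came from the same animals. No batch is labelled. The script was tested on simulated data.

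The members and the gene lists were chosen with earlier results of these data known. Named are all 9 ligands, the other CXC ligands and the receptors with a read, and from each other list up to 4 called genes with the smallest adjusted p and, for markers of other cell types, the 2 with the highest FPKM. Cd68, Adgre1, Itgam, Tyrobp, Ptprc, Mertk, Ccl17, Ccl22, Adam10, Col1a1, Thy1, Dpp4, Pdgfrb, Lum, Icam1, Pecam1 and Zmynd15 were named after their values were seen. Promoter sequences come from RefSeq on GRCm38.p6. Alternatives were DESeq2 1.42.0, upper-quartile scaling, library totals, no filter, glmTreat, limma 3.58.1 on FPKM in log2 with a pseudocount of 1 or 0.1, and each library left out in turn. Tables were made in Python 3.11.15 with pandas 2.3.3, exact tests with scipy 1.17.1 and plots with matplotlib 3.10.9.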

Additional observations from a re-analysis of the deposited data

How the results depend on the processing

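Across 12 alternatives without a fold threshold, Cxcl5, Cxcl9, Cxcl10, Cxcl12, Cxcl14 and Cxcl16 kept their direction and passed the adjusted p in each. Cxcl1 never passed and changed sign to 0.02 without IL-4 replicate 6 (range -0.31 to 0.02 over the libraries left out). The count of ligands called higher was 1, Cxcl13, with DESeq2 and without the filter. It was 0 to 1 when a library was left out. The 1 came without control replicate 1, 2 or 3 or IL-4 replicate 6, where Cxcl13 passed the filter. With 0 counts in every control, Cxcl13 could pass only through its IL-4 counts, so these calls add no separate support. The count called lower was 3 with glmTreat, which lost Cxcl10 (adjusted p = 0.0556), and 3 with limma on log2(FPKM + 1), where Cxcl9 had -0.59, a scale that understates low genes. Over all genes, glmTreat called 512 higher and 350 lower, and limma on log2(FPKM + 1) called 348 and 352. Library totals moved the median of all genes to -0.17 and the split from 809 higher and 737 lower to 657 and 961, with no ligand changing direction. No paired analysis was possible because the control and IL-4 libraries share no replicate numbers. Depth limits Cxcl1, Cxcl2, Cxcl9, Cxcl10 and Cxcl13, which had at most 121 counts in a library.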
